A study of Oreochromis niloticus with 6 samples.

Results

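The enzymes described here modify and cross-link collagen: the lysyl hydroxylases (plod genes), the alpha subunits of collagen prolyl 4-hydroxylase (p4ha genes), and the lysyl oxidases (lox and loxl genes). They were found by symbol in the gene table, allowing the copy endings a and b of bony fish. Of 10 gene names, 9 had a row, which gave 13 rows of the 40538 in the table. These were 7 rows of lysyl oxidases, 4 of prolyl 4-hydroxylase alpha subunits and 2 of lysyl hydroxylases. plod3, the remaining name, had no row under that symbol, and a row that shares its known activities is described with the lysyl hydroxylases.

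The samples were 6 RNA-seq libraries of gill from GIFT, a selectively bred farmed strain of Nile tilapia (Oreochromis niloticus). The 3 hypoxia libraries came from fish whose water was brought to about 1 mg/L dissolved oxygen within 30 min by bubbling nitrogen, with the gill arch taken at 96 h. The 3 control libraries came from fish held at 5 mg/L and sampled at the same time. The labels give no genotype, age or sex, disagree on the number of tanks (3 or 4 replicates per group), and do not tie a library to a tank or fish or say whether fish were pooled. The p-values therefore measure only the spread between these samples.

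Collagen chains are hydroxylated in the endoplasmic reticulum before they fold. Prolyl 4-hydroxylase makes the hydroxyproline that keeps the triple helix stable, and lysyl hydroxylases make the hydroxylysine that carries sugars and enters cross-links. Both use molecular oxygen, 2-oxoglutarate, iron and ascorbate. Outside the cell, lysyl oxidases, which are copper enzymes, use oxygen to turn lysine and hydroxylysine into reactive aldehydes that join neighbouring molecules. In mammalian cells several of these genes, among them PLOD1, PLOD2, P4HA1, P4HA2, LOX and LOXL2, are induced by the hypoxia-inducible factor (HIF). In the fish gill, collagen lies in the cartilage rods of the filaments and in the columns held by pillar cells.

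Levels are FPKM (fragment counts divided by transcript length and by the library's mapped total), so they can be set side by side between genes. The FPKM of a library summed to 466826 to 483691 in hypoxia libraries and 438405 to 455738 in control libraries, without overlap. Absolute depth is unknown, but from the smallest values hypoxia replicate 1 was the shallowest library. Hypoxia replicates 2 and 3 had 1.06 and 1.07 times its depth, and the control libraries 1.09 to 1.21 times. Summed FPKM and depth thus both went with the treatment label, and their part in the calls was not tested. Tests used limma on log2(FPKM + 1) over the 25111 rows whose mean reached 1 FPKM, and a row is called at a Benjamini-Hochberg adjusted p under 0.05. Such calls took 6.77% of the rows tested, 3.46% higher and 3.30% lower in hypoxia libraries. The called rows were 870 higher and 829 lower, a balance that became 595 and 949 on the TPM scale and 700 and 1029 with median-of-ratios scaling. At an unadjusted p under 0.05, 14.2% of all rows tested were higher and 11.2% lower. The gill epithelium markers summed to 999.6 to 1258 FPKM in hypoxia libraries and 971.5 to 1116 FPKM in control libraries, with 1 of 13 tested rows higher and 0 lower. That row was the ammonia channel gene rhbg, at 269 FPKM in hypoxia libraries and 160 FPKM in control libraries on average. Of 2 loci of the epithelial adhesion gene epcam, the main one averaged 281 FPKM in hypoxia libraries and 362 FPKM in control libraries with overlap (limma adjusted p = 0.434). The minor one averaged 2.92 FPKM in hypoxia libraries and 12.6 FPKM in control libraries without overlap (adjusted p = 0.0575). The HIF feedback gene egln3 lay lower in the libraries labelled hypoxia (2.55 to 3.95 FPKM) than in those labelled control (46.4 to 112 FPKM), so each direction below rests on the treatment labels.

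The 2 lysyl hydroxylases went opposite ways: plod2 rose and plod1a fell in hypoxia libraries, and they were the 2 called rows among the 11 rows that were tested. The calls were 1 higher (background 3.46%) and 1 lower (background 3.30%). None of the 3 tested prolyl 4-hydroxylase rows and none of the 6 tested lysyl oxidase rows passed. At an unadjusted p under 0.05 in limma, 1 prolyl 4-hydroxylase row (p4ha1b) and 1 lysyl oxidase row (loxa) were lower and none was higher, where 11.2% of all rows were lower and 14.2% higher. The median change of the 11 rows was -0.11 on the log2 scale, beside 0.05 over all rows tested. The groups did not overlap in 7 of the 11 rows (background 33.2%), 3 with the hypoxia libraries above (background 19.1%) and 4 with them below (background 14.0%). In bulk tissue, fewer cells of a type and less RNA per cell cannot be told apart.

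**Figure D1:**
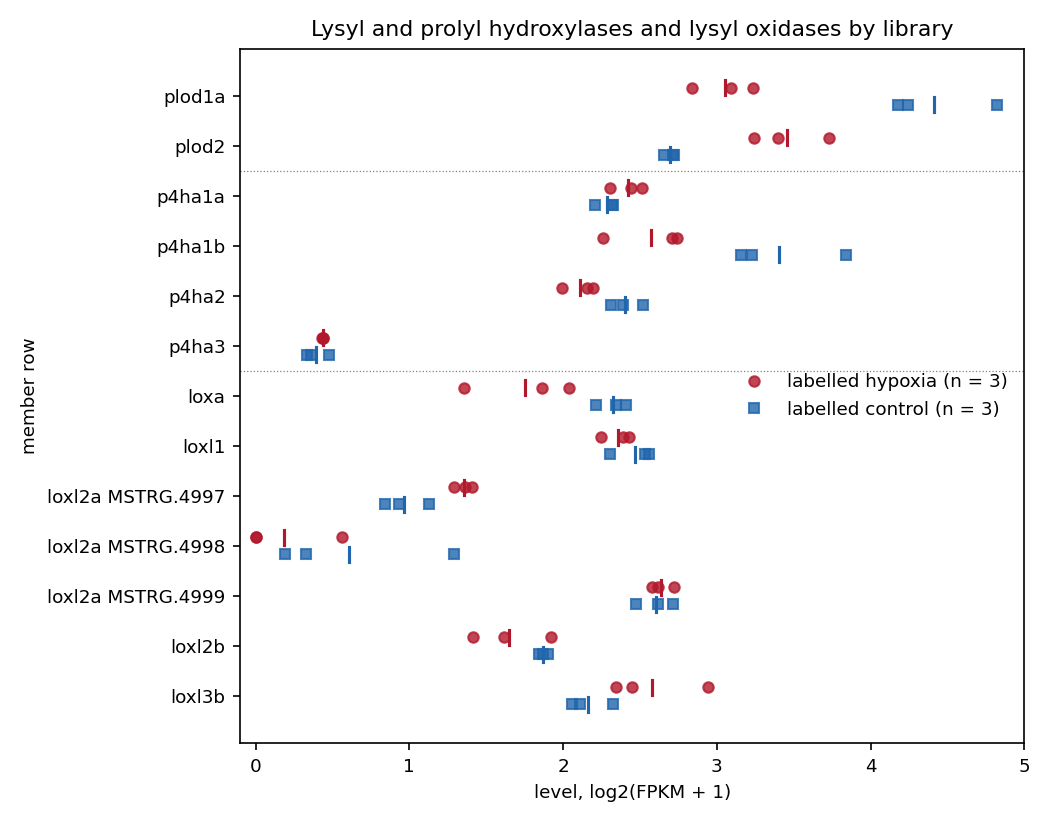
Level of each of the 13 rows in each library, as log2(FPKM + 1). Circles are the 3 hypoxia libraries, squares the 3 control libraries and vertical ticks the group means. plod1a has all circles left of all squares and plod2 all circles right of all squares, while loxl1 and the loxl2a row MSTRG.4999 overlap.

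plod1a encodes a lysyl hydroxylase that in mammals acts mainly on lysines of the collagen triple helix. It had 8.40, 7.52 and 6.14 FPKM in hypoxia replicates 1 to 3, against 27.3, 17.9 and 17.1 FPKM in control replicates 1 to 3. Every hypoxia library lay below every control library, and control replicate 1 stood above the other controls. The means were 7.36 ± 1.14 FPKM in hypoxia libraries and 20.8 ± 5.64 FPKM in control libraries (SD, n = 3 each), 2.82-fold lower in hypoxia libraries. In limma the log2 change was -1.36 ± 0.21 (SE, adjusted p = 0.0241). Without control replicate 1 the difference was 2.38-fold and the call held (adjusted p = 0.0352). The call was lost without hypoxia replicate 1 (adjusted p = 0.0698), hypoxia replicate 3 (0.0850), control replicate 2 (0.0630) or control replicate 3 (0.0527).

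plod2 encodes the lysyl hydroxylase that in mammals acts on the collagen telopeptides, the ends where cross-links form. The table's own gene ontology gives it the term for response to hypoxia, the only one of the 13 rows to carry it. plod2 had 8.47, 9.53 and 12.2 FPKM in hypoxia replicates 1 to 3, against 5.59, 5.55 and 5.30 FPKM in control replicates 1 to 3. The control libraries were nearly equal and the hypoxia libraries all lay above them, with replicate 3 the highest. The means were 10.1 ± 1.94 FPKM in hypoxia libraries and 5.48 ± 0.157 FPKM in control libraries (SD, n = 3 each), a 1.84-fold difference. The log2 change was 0.76 ± 0.15 (SE, limma adjusted p = 0.0410). This call lies close to the threshold: it was lost with any 1 library left out (adjusted p = 0.0695 to 0.113), and also on the TPM scale (0.0525), with median-of-ratios scaling (0.0556), after quantile normalization (0.0522) and with no filter on low values (0.0641). The direction was the same in each of these fits, with log2 changes of 0.62 to 0.87.

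The balance between these isozymes does not depend on how a library is scaled. The ratio of plod2 to plod1a was 1.01, 1.27 and 1.99 in hypoxia replicates 1 to 3, against 0.205, 0.310 and 0.310 in control replicates 1 to 3. plod2 was thus at or above plod1a in every hypoxia library and well below it in every control library. The mean ratio was 5.17-fold higher in hypoxia libraries, with an exact two-sided permutation p of 0.1, the smallest that 3 against 3 libraries can give. Since plod2 was already separate upward and plod1a downward, their ratio had to separate too. Its p therefore adds nothing to those 2 rows. plod2 made up 57.6% ± 8.31 of the summed plod1a and plod2 FPKM in hypoxia libraries and 21.5% ± 3.84 in control libraries (SD, n = 3 each). The sum of both rows was 16.9 to 18.4 FPKM in hypoxia libraries and 22.4 to 32.8 FPKM in control libraries.

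**Figure D2:**
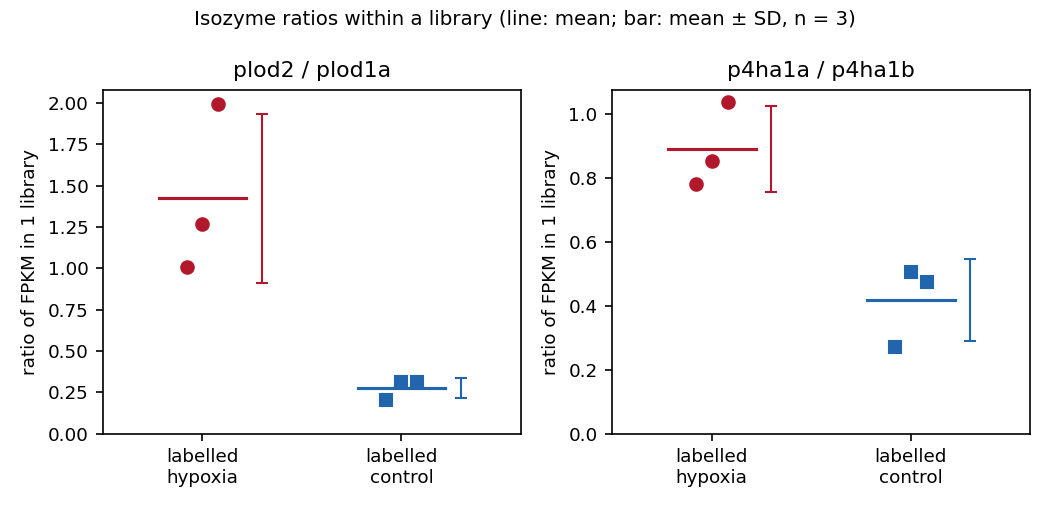
Ratio of FPKM within a library for plod2 over plod1a and for p4ha1a over p4ha1b, hypoxia libraries on the left and control libraries on the right of each panel. Points are libraries, the horizontal line is the mean and the bar is the mean ± SD of 3 libraries. The plod2 to plod1a ratio is 1.01 to 1.99 in hypoxia libraries and 0.205 to 0.310 in control libraries.

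A further row, wu:fb72h05 (MSTRG.10454), is outside the symbol rule but carries the table's codes for lysyl hydroxylase together with collagen galactosyltransferase and glucosyltransferase. It had 11.7, 12.2 and 12.1 FPKM in hypoxia replicates 1 to 3, against 14.8, 11.8 and 13.1 FPKM in control replicates 1 to 3. The groups overlapped (log2 change -0.12 ± 0.11 SE, limma adjusted p = 0.554). Its 95% interval of -0.40 to 0.16 excludes changes as large as those estimated for plod1a and plod2. The row was added after its annotation and values were seen. In mammals PLOD3 is the lysyl hydroxylase that also carries these glycosyltransferase activities, but the table gives the row no plod name, and whether it is the tilapia plod3 was not settled. The row is left out of the plod sums and ratios and of the order of levels given here. Its mean of 12.0 FPKM in hypoxia libraries was above that of plod2. Another row outside the rule, ogfod2 (MSTRG.13800), carries the lysyl hydroxylase code without the transferase codes and is left out in the same way. It averaged 2.19 FPKM in hypoxia libraries and 2.16 FPKM in control libraries, with overlap (limma adjusted p = 0.995).

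Of the prolyl 4-hydroxylase alpha subunits, which carry the catalytic site, p4ha1b differed most. It had 5.69, 5.52 and 3.80 FPKM in hypoxia replicates 1 to 3, against 13.3, 7.91 and 8.36 FPKM in control replicates 1 to 3. All hypoxia libraries lay below all control libraries, and control replicate 1 was the highest, as for plod1a. The means were 5.00 ± 1.05 FPKM in hypoxia libraries and 9.86 ± 2.99 FPKM in control libraries (SD, n = 3 each). The log2 change of -0.84 ± 0.24 (SE) did not pass in limma (adjusted p = 0.0922). It passed in none of the 15 alternative fits (adjusted p = 0.0661 to 0.228), and its log2 change was -0.62 without control replicate 1.

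Its duplicate p4ha1a had 4.44, 4.72 and 3.94 FPKM in hypoxia replicates 1 to 3, against 3.62, 4.00 and 3.98 FPKM in control replicates 1 to 3. These groups overlapped, and the 95% interval of the log2 change was -0.15 to 0.43 (limma adjusted p = 0.510). The ratio of p4ha1a to p4ha1b was 0.78, 0.854 and 1.04 in hypoxia replicates 1 to 3, against 0.272, 0.506 and 0.476 in control replicates 1 to 3. The ratio did not overlap between the groups (2.13-fold higher mean in hypoxia libraries, exact two-sided permutation p = 0.1, the smallest possible). p4ha1b was already separate and p4ha1a differed little between the groups. The ratio and its p therefore add little to the p4ha1b row, which did not pass. Reads shared between such duplicates can be divided between them in counting, so the level of each copy is uncertain.

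p4ha2, another alpha subunit, had 3.57, 2.98 and 3.46 FPKM in hypoxia replicates 1 to 3, against 4.23, 4.73 and 3.96 FPKM in control replicates 1 to 3. The groups did not overlap, yet the log2 change was only -0.29 ± 0.13 (SE, limma adjusted p = 0.219). p4ha3 was listed at 0.350 to 0.358 FPKM in hypoxia libraries and 0.263 to 0.392 FPKM in control libraries, under the filter, and was not tested. Summed over the 4 rows, p4ha levels were 11.5 to 14.0 FPKM in hypoxia libraries and 16.6 to 21.4 FPKM in control libraries. p4ha1b made up 38.0% ± 4.45 of that sum in hypoxia libraries and 53.0% ± 8.11 in control libraries (SD, n = 3 each).

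The beta subunit that completes the prolyl 4-hydroxylase, protein disulfide isomerase, is encoded by p4hb and also works as a general folding enzyme of the endoplasmic reticulum. p4hb had 41.1, 37.9 and 26.3 FPKM in hypoxia replicates 1 to 3, against 51.5, 79.8 and 83.8 FPKM in control replicates 1 to 3. It lay lower in each hypoxia library than in any control library but did not pass (log2 change -1.00 ± 0.25 SE, limma adjusted p = 0.0714). Its control replicate 1 was the lowest of the controls, unlike that of p4ha1b.

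No lysyl oxidase passed, and their log2 changes ran from -0.57 to 0.41. loxa, a copy of the founding lysyl oxidase gene, had 3.11, 2.64 and 1.56 FPKM in hypoxia replicates 1 to 3, against 4.32, 3.65 and 4.08 FPKM in control replicates 1 to 3. The hypoxia libraries all lay below the control libraries, with replicate 3 the lowest. The means were 2.44 ± 0.796 FPKM in hypoxia libraries and 4.02 ± 0.340 FPKM in control libraries (SD, n = 3 each; log2 change -0.57 ± 0.21 SE, limma adjusted p = 0.155).

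loxl3b, of the lysyl oxidase-like genes with scavenger receptor domains, had 6.70, 4.46 and 4.07 FPKM in hypoxia replicates 1 to 3, against 4.00, 3.33 and 3.16 FPKM in control replicates 1 to 3. The groups were just separate, since hypoxia replicate 3 lay barely above control replicate 1. The log2 change was 0.41 ± 0.19 (SE, limma adjusted p = 0.246). loxl1, which in mammals acts on elastin, had 4.38, 3.74 and 4.25 FPKM in hypoxia replicates 1 to 3, against 3.93, 4.80 and 4.90 FPKM in control replicates 1 to 3. The groups overlapped, and the 95% interval of its log2 change was -0.43 to 0.21. loxl2b, of the same type as loxl3b, had 2.80, 1.66 and 2.07 FPKM in hypoxia replicates 1 to 3, against 2.65, 2.59 and 2.74 FPKM in control replicates 1 to 3. Its groups overlapped through hypoxia replicate 1 (limma adjusted p = 0.474).

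The symbol loxl2a was carried by 3 loci with successive numbers in the authors' assembly, whereas RefSeq's gene table (assembly O_niloticus_UMD_NMBU) has 1 gene of that name. MSTRG.4997, the locus with both Ensembl transcripts, had 1.57, 1.66 and 1.44 FPKM in hypoxia replicates 1 to 3, against 0.795, 1.18 and 0.911 FPKM in control replicates 1 to 3. MSTRG.4999, made only of assembled transcripts, had 5.60, 5.15 and 4.96 FPKM in hypoxia replicates 1 to 3, against 4.57, 5.15 and 5.58 FPKM in control replicates 1 to 3. The first locus was separate between groups (limma adjusted p = 0.270) and the other was not (adjusted p = 0.887). MSTRG.4998 was listed at 0 in 2 hypoxia libraries and was under the filter. Added together, the loci gave 6.95 ± 0.475 FPKM in hypoxia libraries and 6.68 ± 1.17 FPKM in control libraries (SD, n = 3 each; log2 change 0.06, limma adjusted p = 0.831 in a fit with rows of each symbol summed). The contrast at MSTRG.4997 was therefore not seen in the summed loci, a sum held mostly by MSTRG.4999. FPKM is divided by transcript length, so such a sum is not the level of 1 gene. Whether the 3 loci belong to 1 gene was not settled.

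**Figure D3:**
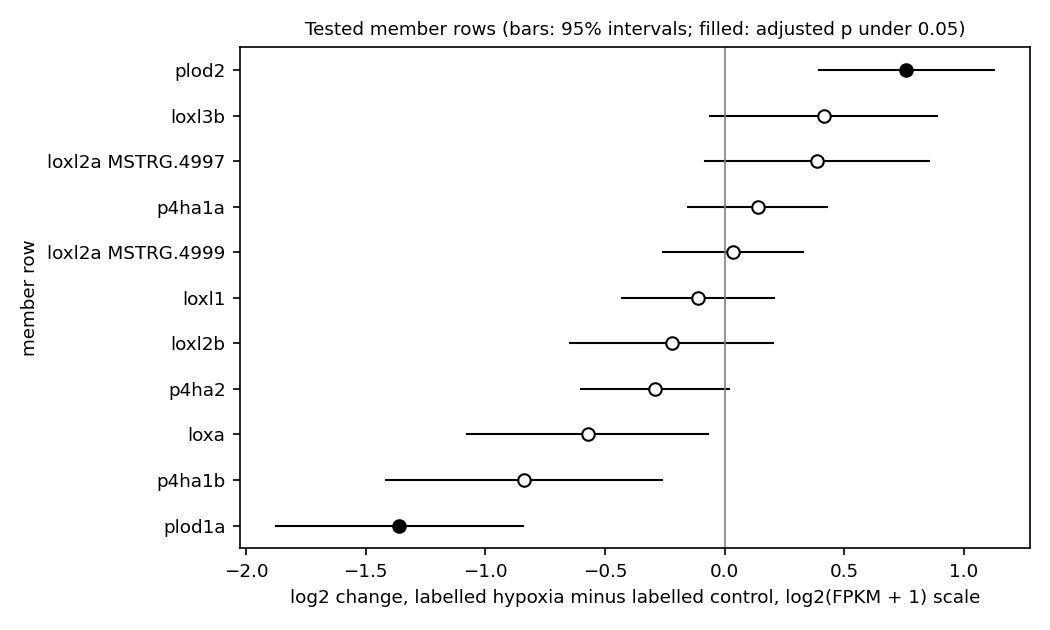
Log2 change of the 11 tested rows, hypoxia minus control, on the log2(FPKM + 1) scale, with 95% intervals. Filled points passed an adjusted p of 0.05. plod2 at 0.76 and plod1a at -1.36 stand at the ends, and the intervals of p4ha1b and loxa also lie below 0 although neither passed after adjustment.

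The order of the levels differed between the groups. Among the 13 rows, plod2 (8.47 to 12.2 FPKM) stood first in hypoxia libraries and plod1a (6.14 to 8.40 FPKM) next. MSTRG.4999 of loxl2a, loxl3b, p4ha1b, p4ha1a and loxl1 followed with means of 5.24 to 4.12 FPKM, each overlapping its neighbour in the order. In control libraries plod1a (17.1 to 27.3 FPKM) stood first and p4ha1b (7.91 to 13.3 FPKM) next, both apart from the rest. plod2, MSTRG.4999 of loxl2a, loxl1, p4ha2, loxa, p4ha1a and loxl3b followed with means of 5.48 to 3.50 FPKM, and neighbours overlapped throughout that run. loxl2b, MSTRG.4997, p4ha3 and MSTRG.4998 were the lowest 4 rows in both groups.

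The LOX family has further copies outside the rule. The row named LOXL4 (MSTRG.24012) had 3.58, 2.29 and 2.16 FPKM in hypoxia replicates 1 to 3, against 1.46, 1.59 and 1.11 FPKM in control replicates 1 to 3. The row named loxl4 (MSTRG.18257) had 8.51, 6.36 and 6.24 FPKM in hypoxia replicates 1 to 3, against 8.08, 11.1 and 11.2 FPKM in control replicates 1 to 3. The first did not overlap between the groups and the other did, and neither passed (limma adjusted p = 0.139 and 0.175), although both had an unadjusted p under 0.05. loxl5a, a fish member of the family, was listed at 0, 0.102 and 0 FPKM in hypoxia replicates 1 to 3, against 0.559, 0.760 and 0.332 FPKM in control replicates 1 to 3. It was under the filter, was not tested and was picked out after its values were seen.

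The substrates of these enzymes were mostly higher in hypoxia libraries. Of 18 tested rows of fibrillar collagens, 9 rose and 0 fell in hypoxia libraries (backgrounds 3.46% and 3.30%), with a median log2 change of 1.07, and no elastin row was matched. At an unadjusted p under 0.05, 14 were higher and 0 lower in limma, beside 14.2% and 11.2% of all rows. col1a1 (MSTRG.10962), a collagen I chain, had 161, 128 and 130 FPKM in hypoxia replicates 1 to 3, against 35.0, 47.1 and 39.9 FPKM in control replicates 1 to 3. The groups were far apart (log2 change 1.76 ± 0.15 SE, limma adjusted p = 0.00923). The other collagen I rows, col1a2 and col1a1b, averaged 90.0 and 109 FPKM in hypoxia libraries and 33.5 and 18.7 FPKM in control libraries. col11a1b, col5a2b and col5a1 (MSTRG.15172), of the minor fibrillar collagens, had log2 changes of 1.69, 1.51 and 0.91 (limma adjusted p = 0.0117, 0.0182 and 0.0209). The other col5a1 locus, MSTRG.15171, overlapped between the groups (log2 change 0.22, limma adjusted p = 0.547). Leaving out hypoxia replicate 1 or control replicate 2 reduced the 9 to 3, leaving out hypoxia replicate 3 or control replicate 3 reduced them to 4, and leaving out hypoxia replicate 2 or control replicate 1 reduced them to 6.

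Relative to each enzyme group, collagen I message was higher in hypoxia libraries. The 3 collagen I rows summed to 410, 282 and 323 FPKM in hypoxia replicates 1 to 3, against 78.4, 103 and 97.0 FPKM in control replicates 1 to 3. That sum was 24.3, 16.6 and 17.6 times the summed plod rows in hypoxia replicates 1 to 3, against 2.39, 4.40 and 4.33 times in control replicates 1 to 3. It was 29.2, 20.8 and 28.0 times the summed p4ha rows in hypoxia replicates 1 to 3, against 3.65, 6.06 and 5.86 times in control replicates 1 to 3. The groups did not overlap in either ratio, and the means were 5.26-fold and 5.01-fold higher in hypoxia libraries. Since the collagen I sum was already separate upward and the plod and p4ha sums downward, both ratios had to separate too. Their separation therefore adds nothing to those sums. Per lysyl oxidase row summed, the ratio was 14.3 to 17.6 in hypoxia libraries and 3.82 to 4.96 in control libraries. The lysyl oxidase rows themselves summed to 18.4 to 24.2 FPKM in hypoxia libraries and 20.5 to 22.8 FPKM in control libraries. Those sums overlapped, so this last ratio follows the collagen I sum. Even against plod2 alone, the member that rose, collagen I stood at 26.4 to 48.4 times in hypoxia libraries and 14.0 to 18.6 times in control libraries.

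**Figure D4:**
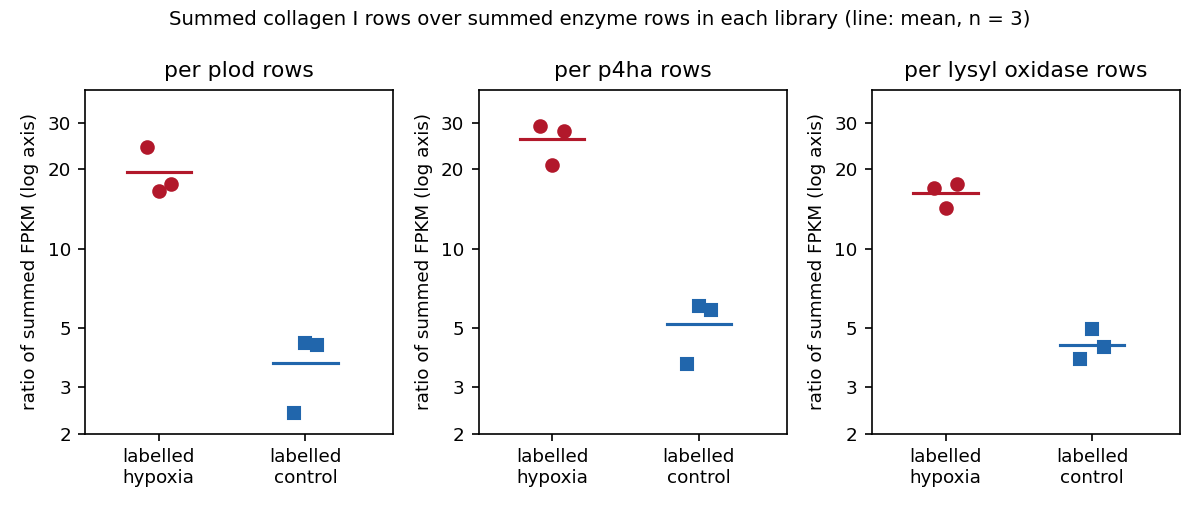
Summed FPKM of the 3 collagen I rows divided by the summed FPKM of the plod, p4ha or lysyl oxidase rows in each library, on a log axis. Hypoxia libraries are on the left of each panel and control libraries on the right, and the line is the mean of 3 libraries. In all panels every hypoxia library (14.3 or more) lies above every control library (6.06 or less).

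Marker sums of several tissues, collagen-rich ones among them, were higher in hypoxia libraries, though some marker rows are also in the other lists. Over all rows tested, 3.46% were called higher and 3.30% lower, the background for each count of called rows below. Cartilage markers summed to 102 to 139 FPKM in hypoxia libraries and 43.1 to 56.1 FPKM in control libraries, with 4 of 17 tested rows higher and 0 lower. Of these 4, col11a2 and col2a1b are fibrillar collagen rows already counted above. The cartilage factor rows SOX9 and sox9a overlapped between the groups. Fibroblast markers, which include the collagen I rows, summed to 397 to 505 FPKM in hypoxia libraries and 143 to 176 FPKM in control libraries. Most of that sum was collagen I, at 282 to 410 FPKM in hypoxia libraries and 78.4 to 103 FPKM in control libraries. Of 12 tested rows, 6 were higher and 1, the receptor gene pdgfra, lower. Without overlap, 8 lay above (background 19.1%) and 2 below (background 14.0%), pdgfra and a locus of prrx1b (MSTRG.14084). The 6 higher rows were the collagen I rows counted above and postnb, lum and dcn, counted again with the cross-link partners below. Bone markers summed to 226 to 342 FPKM in hypoxia libraries and 71.4 to 74.3 FPKM in control libraries. Most of that sum was collagen X, with col10a1b (MSTRG.19715) at 209 FPKM in hypoxia libraries and 32.8 FPKM in control libraries on average. No bone row outside collagen X averaged above 7.2 FPKM in either group, so the sum mainly gives the level of collagen X. The 3 of 8 tested bone rows that rose were all loci of collagen X, and 0 fell, with 3 higher and 2 lower at an unadjusted p under 0.05. The lower ones, without overlap, were the bone endopeptidase gene phex (1.11 FPKM in hypoxia libraries, 3.17 FPKM in control libraries, limma adjusted p = 0.0597) and a locus of the alkaline phosphatase gene alpl (MSTRG.12697, 4.75 FPKM in hypoxia libraries, 7.18 FPKM in control libraries, adjusted p = 0.0986). The osteoblast factor sp7 was under the filter and untested, at 0.0692 to 0.153 FPKM in hypoxia libraries and 0.0286 to 0.0853 FPKM in control libraries, with overlap. Skeletal muscle markers (911 to 1113 FPKM in hypoxia libraries, 442 to 607 FPKM in control libraries) had 8 of 22 higher, and leukocyte markers (2723 to 3214 FPKM in hypoxia libraries, 1133 to 1310 FPKM in control libraries) had 5 of 9. Most of the leukocyte sum was 1 row, cd74b (MSTRG.1327), at 2681 FPKM in hypoxia libraries and 1081 FPKM in control libraries on average. Endothelial and pillar cell markers summed to 90.1 to 107 FPKM in hypoxia libraries and 74.9 to 85.5 FPKM in control libraries, with 0 of 10 called. At an unadjusted p under 0.05 in limma, 3 of these were higher and 1 lower, beside 14.2% and 11.2% of all rows. The higher ones were fli1b, egfl7 (MSTRG.15166) and vwf. The lower one, kdrl, averaged 3.58 FPKM in hypoxia libraries and 5.02 FPKM in control libraries, without overlap. The largest row of that sum, vwf, averaged 39.5 FPKM in hypoxia libraries and 23.2 FPKM in control libraries, with overlap. No marker row was at 0 in every library. The part of any cell type in the enzyme or collagen values was not tested.

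Partners in collagen folding mostly did not pass. The 21 tested rows were of prolyl 3-hydroxylases, chaperones, collagen glycosyltransferases and further genes listed with them, such as the transcription factor gene creb3l2. Of these rows, 1 rose and 0 fell (backgrounds 3.46% and 3.30%), with a median log2 change of 0.20. Before adjustment, 3 of the 21 were higher and 2 lower at a p under 0.05, shares near those of all rows (14.2% and 11.2%). A creb3l2 locus (MSTRG.13165, limma adjusted p = 0.0504) was among those 3. The row that rose was fkbp7 (MSTRG.28974), a prolyl isomerase of the endoplasmic reticulum, at 4.88, 3.96 and 4.98 FPKM in hypoxia replicates 1 to 3, against 2.55, 2.37 and 1.67 FPKM in control replicates 1 to 3 (limma adjusted p = 0.0437). Its call was lost with each library left out in turn. serpinh1b, the collagen chaperone HSP47, had 132, 99.6 and 129 FPKM in hypoxia replicates 1 to 3, against 117, 201 and 234 FPKM in control replicates 1 to 3. These groups overlapped (adjusted p = 0.261).

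Of 21 tested rows of procollagen processing and cross-link partners, 5 rose and 0 fell (backgrounds 3.46% and 3.30%), with a median log2 change of 0.42. They were the fibril-associated proteins postnb, lum and dcn, the fibronectin gene fn1a and adamts2, which removes the amino-terminal propeptide of collagen. lum had 10.2, 13.5 and 6.88 FPKM in hypoxia replicates 1 to 3, against 1.27, 2.45 and 2.35 FPKM in control replicates 1 to 3 (log2 change 1.87 ± 0.28 SE, limma adjusted p = 0.0218). postnb averaged 18.3 FPKM in hypoxia libraries and 4.96 FPKM in control libraries. Periostin, its product, is known in mammals to bind the protease that activates lysyl oxidase. The rows of that protease, bmp1a, had adjusted p of 0.487 and 0.871. fn1b, the more abundant fibronectin copy, lay on the other side, at 31.1, 40.6 and 26.9 FPKM in hypoxia replicates 1 to 3, against 40.7, 50.0 and 62.2 FPKM in control replicates 1 to 3. Its groups were just separate, and it did not pass (limma adjusted p = 0.141). Leaving out hypoxia replicate 2 gave 5 again. The count was 2 when hypoxia replicate 3 or control replicate 1 was dropped, 1 when control replicate 3 was dropped, and 0 when hypoxia replicate 1 or control replicate 2 was dropped. Before adjustment, 9 of the 21 were higher and 3 lower at a limma p under 0.05, beside 14.2% and 11.2% of all rows.

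Of the genes that supply the enzymes' cofactors or, as ogdha and ogdhb do, use up 2-oxoglutarate, several lay lower in hypoxia libraries. Of 12 tested rows, 4 fell and 0 rose (backgrounds 3.30% and 3.46%), with a median log2 change of -0.42. At an unadjusted p under 0.05 in limma, 5 were lower and 2 higher, beside 11.2% and 14.2% of all rows. A locus of ogdha (MSTRG.23434) was among those lower rows and ogdhb among the higher ones. The 4 called rows were idh1 and IDH2 (MSTRG.335), which make 2-oxoglutarate, and both loci of tfr1b, a transferrin receptor that takes up iron. idh1 had 51.8, 53.4 and 49.96 FPKM in hypoxia replicates 1 to 3, against 105, 125 and 127 FPKM in control replicates 1 to 3 (log2 change -1.19 ± 0.11 SE, limma adjusted p = 0.00923). The most abundant IDH2 row, MSTRG.3798, went the other way, with 67.2, 70.4 and 59.3 FPKM in hypoxia replicates 1 to 3, against 54.3, 51.6 and 52.3 FPKM in control replicates 1 to 3. Its groups were separate without a call (adjusted p = 0.126), and a further IDH2 row, MSTRG.3797, overlapped, so the fall at MSTRG.335 was not shared by the other loci of that name. tfr1b (MSTRG.2439) averaged 21.8 ± 4.25 FPKM in hypoxia libraries and 63.5 ± 21.7 FPKM in control libraries (SD, n = 3 each; adjusted p = 0.0430). Its duplicate tfr1a overlapped between the groups (limma adjusted p = 0.389). The vitamin C transporter slc23a2 had 2.79, 3.92 and 9.00 FPKM in hypoxia replicates 1 to 3, against 5.38, 7.04 and 9.69 FPKM in control replicates 1 to 3, with overlap. atp7a, which loads copper onto lysyl oxidases, had 4.67, 5.60 and 4.61 FPKM in hypoxia replicates 1 to 3, against 7.29, 7.32 and 7.58 FPKM in control replicates 1 to 3. Its groups were separate, but it did not pass (adjusted p = 0.0607). Dropping control replicate 1 gave 4 lower rows again, dropping hypoxia replicate 2 gave 2, and dropping any other library gave 1.

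HIF pathway genes outside the enzymes had 6 of 22 tested rows lower and 0 higher (backgrounds 3.30% and 3.46%), with a median log2 change of -0.46. At an unadjusted p under 0.05, 11 were lower and 1 higher in limma, beside 11.2% and 14.2% of all rows. The 6 called rows were egln3, egln2, hif1an, both loci of ddit4 and 1 of 2 loci of pgk1. The other pgk1 locus, MSTRG.17628, went the opposite way and was the 1 higher row before adjustment. It averaged 20.4 FPKM in hypoxia libraries and 10.5 FPKM in control libraries, without overlap (limma adjusted p = 0.0932). Dropping hypoxia replicate 2 gave 6 lower rows and 1 higher. Dropping control replicate 1 or 3 gave 4 lower rows, and dropping any other library gave 3. The HIF list is incomplete: the names hif3a, ankrd37, ca9, vegfa and kdm3a matched no row. The rows of slc2a1a and p4htm were under the filter and untested.

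**Figure D5:**
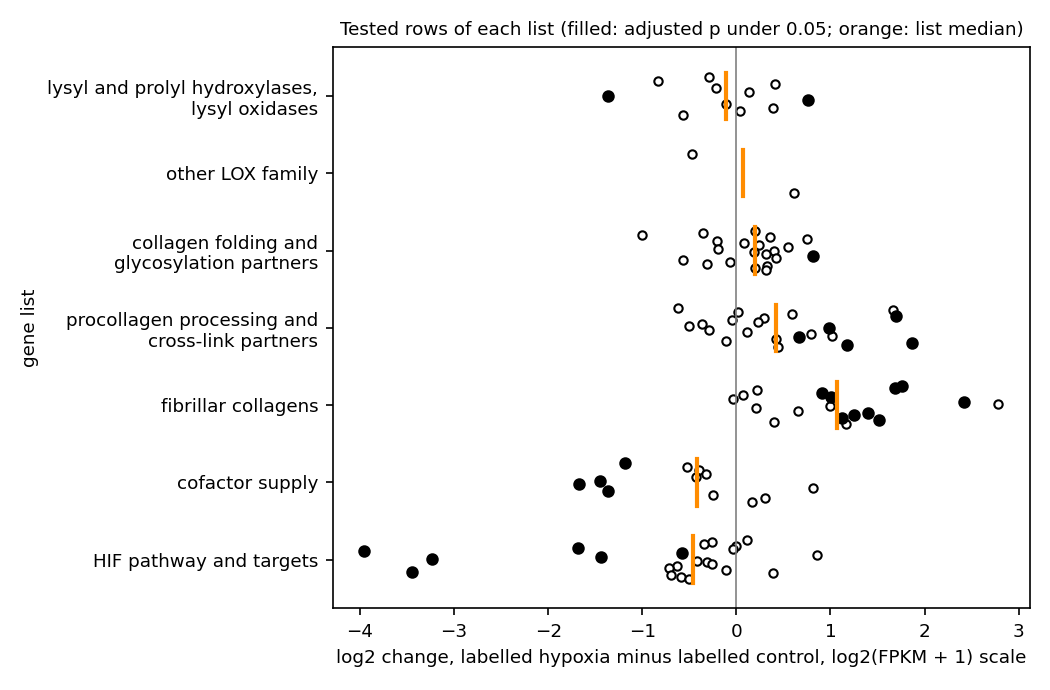
Log2 change of every tested row in each gene list, hypoxia minus control, on the log2(FPKM + 1) scale. Filled points passed an adjusted p of 0.05 and the orange line is the list median. The fibrillar collagens lie to the right (median 1.07), the HIF pathway to the left (median -0.46), and the collagen-modifying enzymes spread to both sides (median -0.11).

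The rows with profiles nearest to the called members were found by the root mean square distance of centred log2(FPKM + 1) over the 6 libraries. For plod1a they were irs2a, eef2k and fam13a (distances 0.097 to 0.13 on the log2 scale). For plod2 they were raver1, clasp2 and HECTD4 (distances 0.043 to 0.070). irs2a averaged 3.60 FPKM in hypoxia libraries and 10.9 FPKM in control libraries, and clasp2 33.4 FPKM in hypoxia libraries and 18.8 FPKM in control libraries.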

How the data were processed

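Gill RNA-seq of 6 libraries was read from 1 table with 1 FPKM column per library. For the deposited FPKM values the authors' tools included, per the submitters' processing notes, HISAT and StringTie. Versions, genome build, annotation: not given in the sources used here. Assembled loci can merge or split genes, and gene names came from the table. No positions or sequences are reported. Libraries were grouped by their treatment label.

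The 25111 rows whose mean reached 1 FPKM were fitted as log2(FPKM + 1) in R 4.3.3 with limma 3.58.1 (lmFit, then eBayes with trend). The model held the group alone. Tests were two-sided and p-values were adjusted over all of these rows by Benjamini-Hochberg. FPKM gives no counts, so precision is the spread over 3 libraries. The scale understates changes of low genes. The fit was tested on simulated data, but no outcome of that test is given here, so it lends the calls no weight.

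The members and lists were chosen with earlier results of these data known. All member rows were named, and from each accompanying list at most 6 called rows or, with none called, the 2 of smallest p. p4hb, serpinh1b, atp7a, slc23a2, bmp1a, fn1b, the IDH2 row MSTRG.3798, wu:fb72h05, loxl5a and single markers were named after their values were seen. The same holds for the pgk1 locus MSTRG.17628, the col5a1 locus MSTRG.15171, creb3l2, ogdha, ogdhb, tfr1a and ogfod2. Names joining several genes (417 rows) matched no list. The alternatives were other pseudocounts, filters, scalings, variance models and library weights, a replicate block, summed loci, and each library left out.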

Additional observations from a re-analysis of the deposited data

How the results depend on the processing

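Over their alternatives, 138 of 159 values of the 11 tested rows kept their direction and their side of the threshold. All 16 changes of side were lost calls of plod1a or plod2, and no uncalled row passed. No plod2 call remained with no filter on low values, on the TPM scale, with median-of-ratios scaling or after quantile normalization (0 higher rows in each), and plod1a was then still the 1 lower row. With 1 library left out, the higher rows among the enzymes numbered 0 in every fit and the lower rows 0 to 1. The loxl2a row MSTRG.4999 changed sign to -0.057 on the TPM scale, -0.039 with median-of-ratios scaling and -0.026 after quantile normalization, and ran from -0.029 to 0.091 with 1 library left out.

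Over all rows, calls were 519 higher and 539 lower with no filter, 1412 and 1289 with library weights, and 106 to 818 higher and 154 to 809 lower with 1 library left out. The labels do not pair the libraries, and deviations of same-numbered libraries correlated at -0.06, -0.04 and -0.12. With the replicate number as a block, 0 rows were higher and 2 lower over all rows, and 0 enzyme rows were higher and 0 lower. At an unadjusted p under 0.05 in limma, that fit had 2786 higher and 2324 lower over all rows, with 1 enzyme row higher and 3 lower. With 1 library left out, 1 to 2 enzyme rows were higher and 2 to 3 lower at that level. The cause of these changes was not tested. Depth is unknown, and loxl2a MSTRG.4997 lies nearest the filter (mean 1.26 FPKM), with p4ha3 (0.333 FPKM) untested below it.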

Other observations

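Within the 3 control libraries alone, which differ by no treatment, replicate 1 stood apart for plod1a and p4ha1b, the hydroxylase rows with the lowest log2 changes (-1.36 and -0.84). Its level over the mean of control replicates 2 and 3 was 1.64 for p4ha1b and 1.56 for plod1a, and 0.759 to 1.23 for the other 9 tested enzyme rows, plod2 among them at 1.03. A ratio over 1.5 was thus held by 2 of the 11 tested enzyme rows, 18.2%, near the 13.3% of all rows with a ratio. Of the 22 tested HIF pathway rows, 8 had a ratio over 1.5, a share of 36.4% beside that 13.3%. egln3 stood at 2.32, egln2 at 1.68 and egln1a at 1.79, while pdk1 (0.990) and pgk1 (1.04, MSTRG.17627) were level. The median ratio was 0.995 for the enzymes, 1.18 for the HIF pathway rows and 0.958 for all rows. This pattern was chosen after the values were seen and rests on 1 library.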
